A study of Mus musculus with 6 samples.

Results

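The collagen genes are described here: the 44 protein-coding genes, of 55536 genes in the count table, whose mouse symbol is written Col, a type number, a and a chain number. They were measured by bulk RNA-seq in basal keratinocytes positive for Epcam and α6 integrin, sorted from dorsal skin of E16.5 mouse embryos, with 3 Ctrl and 3 TKO libraries. All embryos were Suv39h1 f/f, Suv39h2-/- and Setdb1 f/f and all received tamoxifen. TKO embryos also carried K14CreERT2, a Cre recombinase driven by the keratin 14 promoter, and Ctrl embryos did not, so that both groups lacked Suv39h2 and the presence of the Cre cannot be told apart from the deletion it makes. The 3 genes encode H3K9 methyltransferases, and the comparison asks which genes change when the repressive mark H3K9me3 is lost from the embryonic epidermis. Per the study's methods, tamoxifen was given to pregnant females on consecutive days, from E9.5 to E11.5 in the litters used for bulk RNA-seq, and all of these knockouts were classed as mosaic. The labels give a sex letter to each library, F for Ctrl replicate 1 and TKO replicate 2 and M for the other 4, and counts of Xist and of Y-linked genes matched these letters in all 6. Total counts per library ranged from 102159175 to 136515436.

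Collagens are triple-helical proteins of the extracellular matrix. Fibrillar collagens build the ropes of the dermis and are made mainly by fibroblasts. Type IV collagens form the sheet of the basement membrane on which basal keratinocytes sit, type VII collagen forms the anchoring fibrils below it, and type XVII collagen is a transmembrane protein of the hemidesmosome, the junction that fixes the basal keratinocyte to the sheet. FACIT collagens (fibril-associated collagens with interrupted triple helices) decorate the surface of fibrils, and type VI collagens form beaded filaments. Type XXVIII collagen, encoded by Col28a1, resembles the type VI chains in carrying von Willebrand factor A domains and is known from basement membranes around Schwann cells of peripheral nerve. The members were sorted into 7 classes, with 11 fibrillar, 9 basement membrane, 6 beaded filament, 3 short-chain network, 9 FACIT, 4 transmembrane and 2 other genes (Col26a1 and Col28a1).

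Promoter sequences are shown for 4 members that the results below turn on: Col28a1, which rose most, Col17a1, the most abundant member per kilobase, Col7a1, which was lower in every TKO library, and Col4a1, whose start lies beside that of Col4a2. Each run is the 250 bases before the transcription start given by RefSeq on GRCm38.p6, 5′ to 3′ on the strand of the gene, with CpG dinucleotides in capitals. The positions are chr6:8192618-8192867, minus strand, for Col28a1, chr19:47692043-47692292, minus strand, for Col17a1, chr9:108953336-108953585, plus strand, for Col7a1, and chr8:11312827-11313076, minus strand, for Col4a1.
Col28a1: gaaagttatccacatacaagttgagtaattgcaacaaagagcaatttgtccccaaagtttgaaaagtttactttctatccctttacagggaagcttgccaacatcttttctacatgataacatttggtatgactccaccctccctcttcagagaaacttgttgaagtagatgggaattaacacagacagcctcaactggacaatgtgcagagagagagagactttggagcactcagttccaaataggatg
Col17a1: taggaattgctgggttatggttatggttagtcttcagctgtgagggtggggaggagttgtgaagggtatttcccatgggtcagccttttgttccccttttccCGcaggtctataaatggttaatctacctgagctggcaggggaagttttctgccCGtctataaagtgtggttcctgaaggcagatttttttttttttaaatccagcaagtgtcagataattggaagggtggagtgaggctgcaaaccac
Col7a1: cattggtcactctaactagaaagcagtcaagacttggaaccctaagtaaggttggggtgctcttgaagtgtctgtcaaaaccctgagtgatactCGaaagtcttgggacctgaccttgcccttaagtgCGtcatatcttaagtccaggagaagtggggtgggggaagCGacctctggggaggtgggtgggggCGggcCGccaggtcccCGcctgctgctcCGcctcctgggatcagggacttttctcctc
Col4a1: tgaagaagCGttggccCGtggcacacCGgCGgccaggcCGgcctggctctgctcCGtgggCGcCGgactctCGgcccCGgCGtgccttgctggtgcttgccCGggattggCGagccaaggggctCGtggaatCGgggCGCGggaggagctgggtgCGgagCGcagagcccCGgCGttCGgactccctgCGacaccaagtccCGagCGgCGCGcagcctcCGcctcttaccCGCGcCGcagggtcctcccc
The Col28a1 run held 0 CpG dinucleotides, the Col17a1 run 2, the Col7a1 run 7 and the Col4a1 run 31. RefSeq windows that run from 250 bases before to 50 bases after the start were found for 35 of the 44 genes, with 38 windows in all, and Col14a1 was not among them. The Col28a1 window had a GC content of 41.7%, against a median of 59.8% over the 38 collagen windows and 52.7% over all 32841 windows. Windows without any CpG made up 7.89% of the collagen windows (3 of 38) and 5.42% of all windows. The windows were also searched on both strands for 4 motifs that do not overlap in their letters. TATAAA was in 13.2% of the collagen windows and 13.6% of all windows, GGGCGG in 60.5% and 35.7%, CCAAT in 34.2% and 37.4%, and TGANTCA in 2.63% and 7.81%. The Col28a1 window held none of these 4 strings of letters, and the Col17a1 window held 2 matches to TATAAA and 1 to CCAAT.

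The targeted genes were examined first. Setdb1 was at 125.5, 117.9 and 121.1 CPM (counts scaled to library size) in the Ctrl libraries, always given in the order of replicates 1, 2 and 3, against 95.3, 62.3 and 74.9 CPM in the TKO libraries. All TKO libraries lay below all Ctrl libraries. Its log2 fold change was -0.65 (SE 0.161), with an adjusted p of 0.286 by edgeR and 0.0449 by DESeq2. Suv39h1 was at 88.7, 78.5 and 84.0 CPM in Ctrl and 75.6, 68.9 and 89.4 CPM in TKO, and the groups overlapped. Suv39h2, deleted in all embryos, was at 15.6 to 17.1 CPM in Ctrl and 16 to 18.9 CPM in TKO. Counts over whole genes do not show whether the deleted exons are missing from a transcript, and all 3 genes overlap exons on the other strand, by 2581 bases for Setdb1 (Cers2 and others), 923 for Suv39h1 (Gm14820) and 5284 for Suv39h2 (mostly Dclre1c).

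Per kilobase of exon, the scale on which levels of different genes are compared here, 20 of the 44 collagen genes had a mean above 1 CPM per kilobase in Ctrl and 22 in TKO. Col17a1 was the most abundant, at 195.7 ± 19.6 (SD, n = 3) CPM per kilobase in Ctrl and 190.7 ± 32.2 in TKO. Col1a1, the α1 chain of type I collagen, was next at 149.3 ± 81.0 in Ctrl and 152.5 ± 29.3 in TKO, and these neighbours in the order did not differ beyond their spread in Ctrl. They were followed in Ctrl by Col3a1 (47.4 ± 23.7), Col18a1 (44.1 ± 4.36), Col7a1 (40.3 ± 4.61), Col1a2 (38.5 ± 18.3), Col4a1 (30.6 ± 3.18) and Col5a1 (30.5 ± 5.09). Neighbours within the run from Col3a1 to Col5a1 differed by less than the larger SD of the pair, while Col3a1 lay below Col1a1, and Col5a1 above the next gene, Col12a1 (18 ± 3.20), by more than that. With the length of the canonical transcript in place of merged exons, Col1a2 moved from the sixth to the third place in Ctrl, at 90.8 CPM per kilobase. At the low end, Col10a1 and Col9a1, chains known from cartilage, held 0 counts in at least 1 library and did not pass the filter on low counts, which left 42 genes tested.

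**Figure D1:**
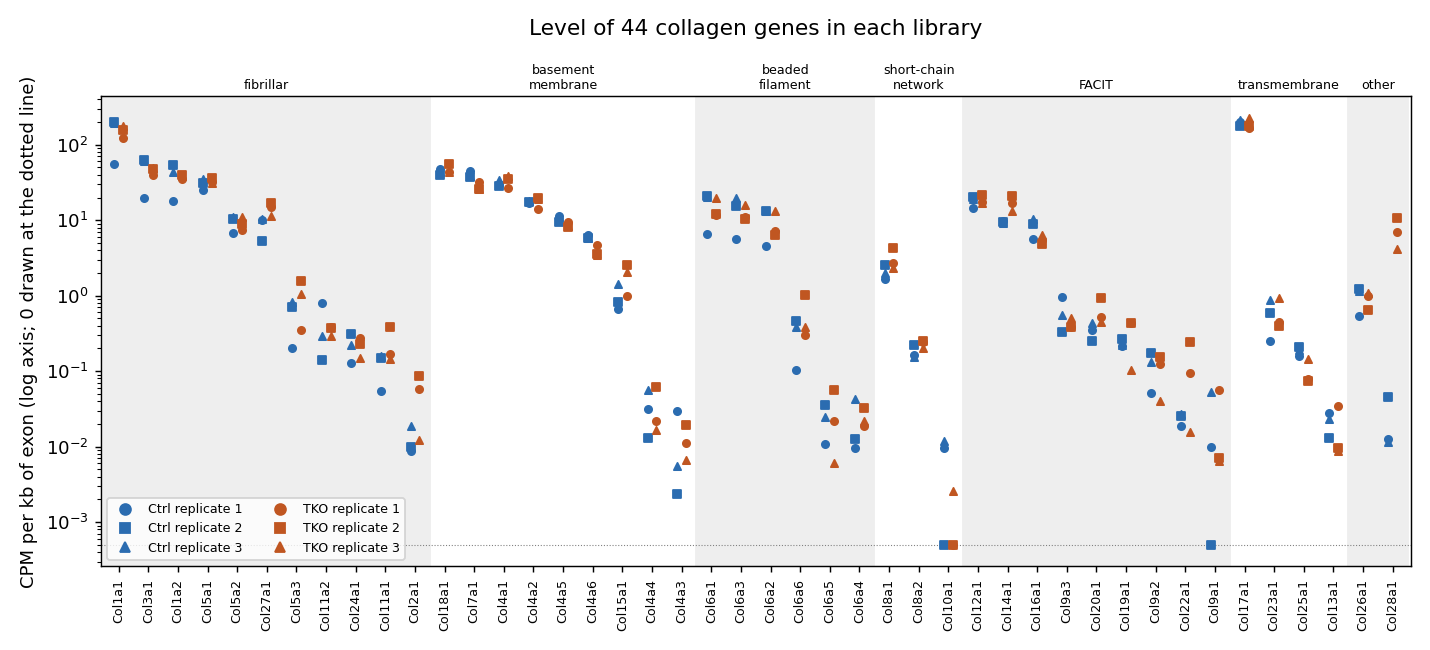
Level of the 44 collagen genes in CPM per kilobase of merged exon, on a log axis, by class and in order of the Ctrl mean. Blue points are the 3 Ctrl and orange points the 3 TKO libraries, and Col28a1 at the far right is the gene whose groups lie farthest apart.

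Ctrl replicate 1 stood apart in the collagens of the dermis. It was the lowest of the 6 libraries in 9 of the 11 fibrillar and 5 of the 6 type VI genes, and in 5 of the 27 other collagen genes, and it was the lowest in 17.6% of all tested genes. The summed level of the fibrillar genes was 1240, 3091 and 3011 CPM in Ctrl and 2214, 2678 and 2725 CPM in TKO. The type VI genes summed to 157.9, 461.4 and 502.1 CPM in Ctrl and 282.7, 275.2 and 450.8 CPM in TKO. Among dermal fibroblast markers that are not collagens, Ctrl replicate 1 was also the lowest library in 11 of 14. Pdgfra, which encodes a receptor that marks fibroblasts, was at 7.55, 26.3 and 21.3 CPM in Ctrl and 14.8, 14 and 18.7 CPM in TKO, and the 14 markers summed to 1338, 2208 and 1675 CPM in Ctrl and 1644, 1381 and 1712 CPM in TKO, with Postn the most abundant. The part of fibroblast RNA in the fibrillar and type VI values was not tested. The basement membrane genes, in contrast, summed to 1314, 1138 and 1253 CPM in Ctrl and 1080, 1194 and 1113 CPM in TKO, and Ctrl replicate 1 was lowest in 1 of 9. Without Ctrl replicate 1, the median log2 fold change was 0.01 in place of 0.03 for the fibrillar class, -0.33 in place of 0.03 for the type VI genes and -0.02 in place of -0.01 for the basement membrane class, and Col1a1 had a log2 fold change of -0.36.

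**Figure D2:**
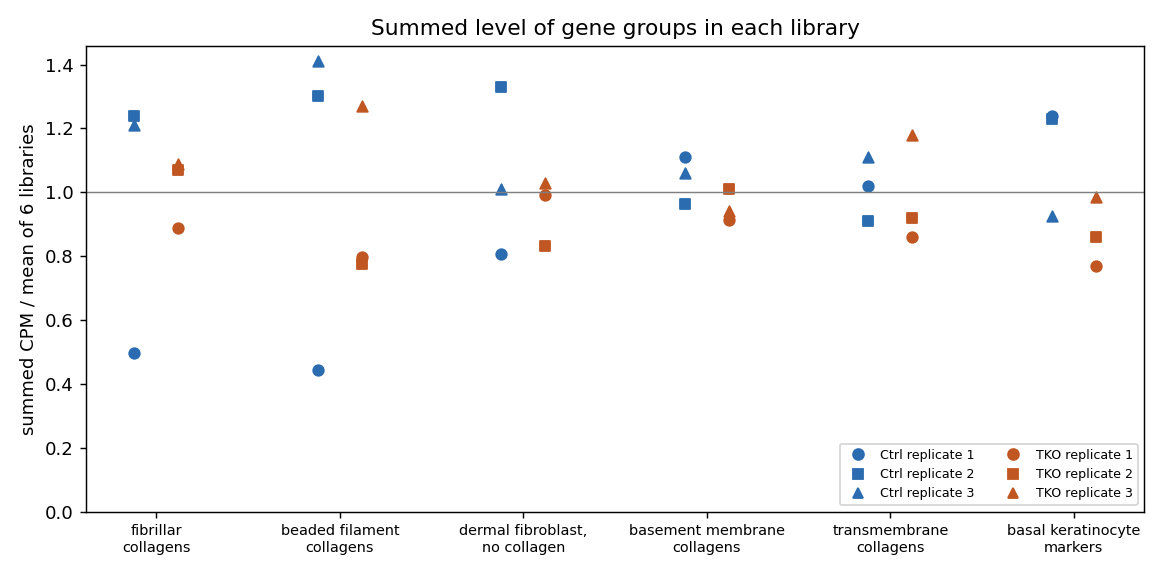
Summed CPM of 6 gene groups in each library, divided by the mean of the 6 libraries. Ctrl replicate 1 is at 0.497 for the fibrillar and 0.445 for the beaded filament (type VI) collagens and at 1.11 for the basement membrane collagens.

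Col28a1 was nearly silent in Ctrl and clearly expressed in TKO. Its counts were 7, 33 and 7 in Ctrl and 4675, 6606 and 2854 in TKO, which correspond to 0.0707, 0.255 and 0.0649 CPM against 39.7, 59.8 and 23.5 CPM. The lowest TKO library lay far above the highest Ctrl library. The ratio of the group means was 314.6 and the log2 fold change was 8.22 (SE 0.567, adjusted p = 0.000623 by edgeR's quasi-likelihood test). The gene ranked 13 by log2 fold change and 3 by p-value among all 20622 genes tested, and its call held in 6 of 6 fits with 1 library removed, with log2 fold changes from 7.85 to 9.22. Between the libraries with the sex letter F the log2 ratio of CPM was 9.73 and among those with M it was 7.62. The Ctrl counts were above the floor of 3 counts used here, which corresponds to 0.0232 to 0.0303 CPM.

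Among its own family, Col28a1 moved from the bottom to the middle of the order. By level per kilobase it was number 39, 35 and 43 of 44 in the Ctrl libraries and number 18, 14 and 19 in the TKO libraries. It made up 0.00166%, 0.0041% and 0.000995% of all collagen counts in Ctrl, and 0.781%, 1.02% and 0.383% in TKO. Its TKO mean of 7.31 ± 3.25 CPM per kilobase was near those of Col4a5 (8.64 ± 0.796) and Col16a1 (5.58 ± 0.771), and far under that of Col17a1. TKO replicate 2 was the highest and TKO replicate 3 the lowest.

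Col28a1 spans bases 7997102 to 8192617 of chromosome 6 on the minus strand (GENCODE vM39, GRCm39). Of its exons, 0 bases overlap exons of another annotated gene on the other strand. Within 1 Mb of the gene, 30 genes were listed in the count table and 12 were tested, Col28a1 included. Mios, whose start is the nearest of the tested genes, was at 28.6, 41.6 and 33.6 CPM in Ctrl and 41.5, 43.3 and 33.3 CPM in TKO (log2 fold change 0.19, SE 0.177), and the groups overlapped. Ica1, which encodes an islet cell autoantigen and starts 586.0 kb away, was at 3.67, 3.61 and 4.77 CPM in Ctrl and 7.85, 11.7 and 6.72 CPM in TKO, with all TKO libraries above all Ctrl libraries. Its log2 fold change was 1.13 (SE 0.274), with an adjusted p of 0.268 by edgeR and 0.00515 by DESeq2. The pseudogene Rnps1-ps was at 0.444, 0.433 and 0.353 CPM in Ctrl and 0.493, 0.462 and 0.469 CPM in TKO. Its TKO libraries also lay above all Ctrl libraries, with a log2 fold change of 0.21 (SE 0.461). Of the 12 tested genes only Col28a1 was called by edgeR, where 0.131% of all tested genes were called higher. TKO libraries lay entirely above Ctrl in 6.35% of all tested genes.

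**Figure D3:**
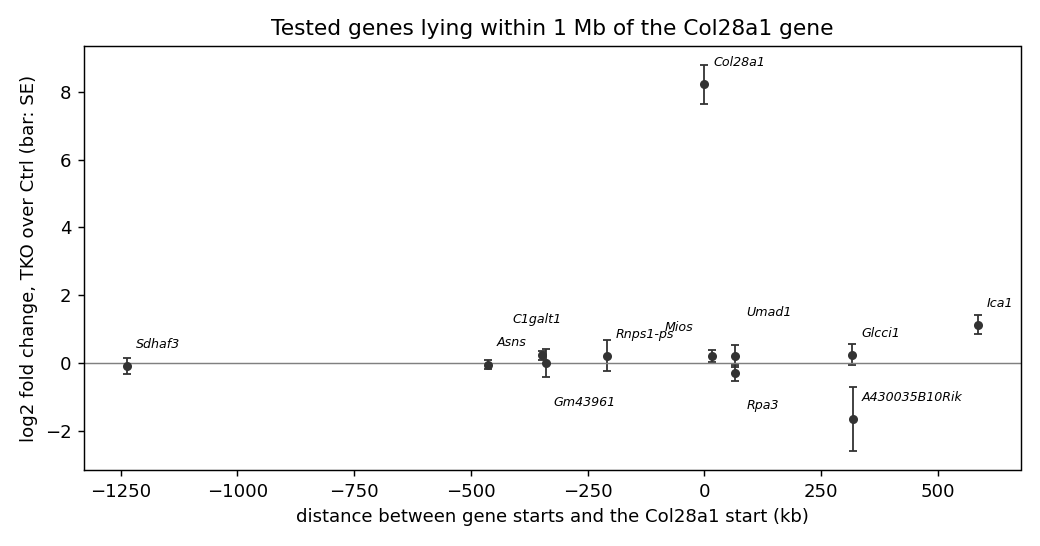
Log2 fold change of TKO over Ctrl, with its standard error, for the 12 tested genes within 1 Mb of Col28a1, by the distance of their start from the Col28a1 start in kb. Col28a1 stands at 8.22 and Ica1 at 1.13, and the log2 fold changes of the other genes lie between -1.66 and 0.24.

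Because Col28a1 is known from peripheral nerve, Schwann cell markers were read beside it. Sox10, the transcription factor that defines the lineage, was at 0.707, 1.16 and 2.38 CPM in Ctrl and 1.23, 2.87 and 2.46 CPM in TKO, and Foxd3 held 0 counts in all 6 libraries. The 10 listed markers summed to 316.7, 241.2 and 296.8 CPM in Ctrl and 248.2, 233.8 and 282.2 CPM in TKO, mostly from Erbb3, which keratinocytes also express. Of the 8 tested markers 0 passed an unadjusted p of 0.05, where 4.06% of all genes were higher and 2.02% lower. The log2 fold change was positive in 7 of the 8 and negative in 1. Its median was 0.21, and 0.11 without Ctrl replicate 1, against 0.01 for all genes.

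For the collagen family as a whole, Col28a1 stood alone. It was the only 1 of 42 tested collagen genes called higher in TKO (adjusted p under 0.05 and log2 fold change above 1), against a background of 27 of 20622 genes, 0.131%. Of the collagen genes 0 were called lower, as were 0 (0%) of all genes. By DESeq2 at an adjusted p under 0.05, 2 collagen genes were higher (Col28a1 and Col14a1) and 0 lower, against 1.07% and 0.189% of all genes. At an unadjusted p under 0.05 in edgeR, 8 were higher and 5 lower, where the background was 4.06% and 2.02%. The count of 8 was 3 without Ctrl replicate 1, 5 without Ctrl replicate 2 and 2 without TKO replicate 2, and the count of 5 was 2 without Ctrl replicate 3, 3 without TKO replicate 1 and 2 without TKO replicate 2. With a sex factor 4 were higher and 4 lower. Among the 17 members without exon overlap on the other strand, 1 was higher and 3 were lower. The median log2 fold change of the 42 genes was 0.02, against 0.01 for all genes, and -0.06 without Ctrl replicate 1. The p-values set the difference between the groups against the spread between these samples. In bulk samples fewer cells of a type and less RNA per cell cannot be told apart.

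**Figure D4:**
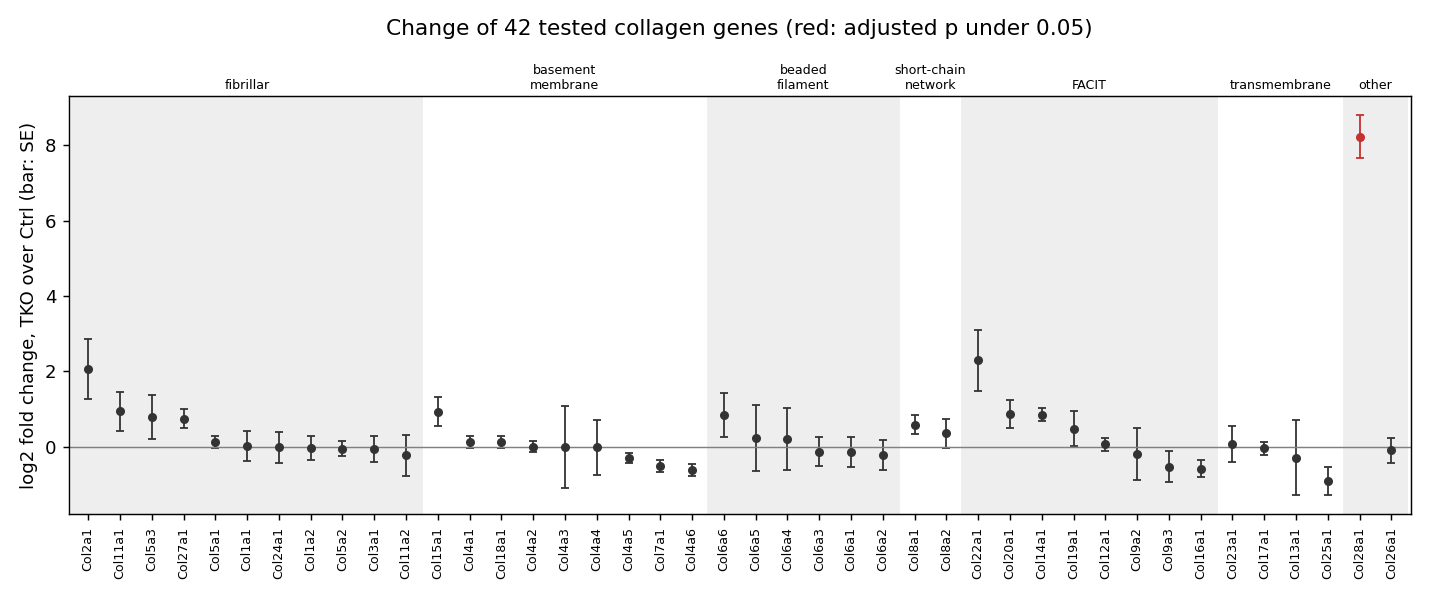
Log2 fold change of TKO over Ctrl, with its standard error, for the 42 tested collagen genes by class. Col28a1 at 8.22 is the only point with an adjusted p under 0.05, and the next highest, Col22a1 and Col2a1, have wide errors.

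TKO libraries lay entirely above Ctrl for 4 collagen genes, Col28a1, Col14a1, Col27a1 and Col20a1, against 6.35% of all tested genes. Col14a1, a FACIT collagen on the surface of dermal fibrils, was at 69.5, 65.9 and 63.7 CPM in Ctrl and 118.1, 148.6 and 92.4 CPM in TKO. The Ctrl libraries were close together and each TKO library was above them (log2 fold change 0.85, SE 0.172), with an adjusted p of 0.164 by edgeR, 0.00286 by DESeq2 and 0.0259 by edgeR without TKO replicate 3. Col27a1, a fibrillar chain known from cartilage, was at 133.0, 68.6 and 134.4 CPM in Ctrl and 193.8, 221.2 and 146.8 CPM in TKO (log2 fold change 0.74, SE 0.253, adjusted p = 0.635 by edgeR and 0.00262 without the filter on low counts). Its lowest TKO library exceeded the highest Ctrl library by little. Col20a1, another FACIT gene, was at 1.93, 1.39 and 2.37 CPM in Ctrl and 2.87, 5.04 and 2.44 CPM in TKO (log2 fold change 0.87, SE 0.376, adjusted p = 0.800 by edgeR). In all 4 genes TKO replicate 2 was the highest library, and TKO replicate 3 was the lowest of the TKO libraries. Col14a1, Col27a1 and Col20a1 each overlap exons of a gene on the other strand, by 269, 358 and 150 bases, and reads of the 2 strands cannot be told apart where strand was not used in counting.

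TKO libraries lay entirely below Ctrl for 3 collagen genes, Col4a6, Col7a1 and Col25a1, against 5.11% of all tested genes. Col7a1, the chain of the anchoring fibrils, was at 468.7, 379.4 and 396.3 CPM in Ctrl and 334.3, 267.8 and 263.3 CPM in TKO. Its log2 fold change was -0.52 (SE 0.156, adjusted p = 0.451 by edgeR). Col4a6 was at 50.9, 45.9 and 45.7 CPM in Ctrl and 37.6, 28.4 and 27.6 CPM in TKO, and no TKO library reached the lowest Ctrl library (log2 fold change -0.61, SE 0.159, adjusted p = 0.327 by edgeR and 0.0266 without the filter on low counts). Col25a1, a transmembrane collagen of neurons, was at 2.10, 2.72 and 2.50 CPM in Ctrl and 1.03, 0.960 and 1.90 CPM in TKO (log2 fold change -0.91, SE 0.377, adjusted p = 0.776 by edgeR). It had the lowest log2 fold change of the tested collagen genes. None of these 3 was called by edgeR with the filter or passed an adjusted p of 0.05 by DESeq2.

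**Figure D5:**
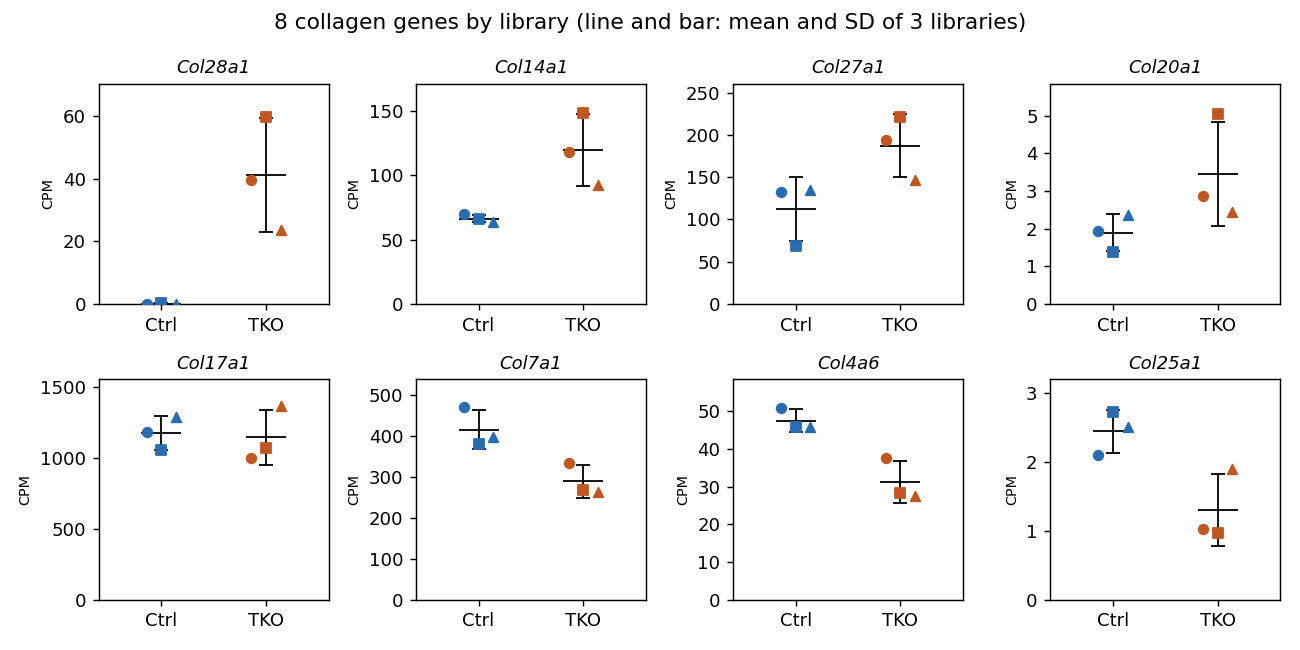
CPM of 8 collagen genes in each library, with the group mean and SD (n = 3), on linear axes from 0. The upper 4 genes and the lower right 3 are those whose groups do not overlap, and Col17a1, at the lower left, overlaps between groups.

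In the basement membrane class, 1 of the 9 genes was higher and 3 were lower at an unadjusted p under 0.05 (4.06% and 2.02% of all genes, the background for the class counts that follow), and the median log2 fold change was -0.01. Type IV collagen genes lie in head-to-head pairs. Col4a1 and Col4a2, which overlap by 356 bases at their starts on chromosome 8 and encode the chains found in most basement membranes, had log2 fold changes of 0.13 (SE 0.164) and 0.00 (SE 0.146). Col4a1 was at 217.7, 212.5 and 255.9 CPM in Ctrl and 199.0, 266.1 and 284.0 CPM in TKO, and the groups overlapped. Col4a2 was at 122.0, 125.9 and 129.4 CPM in Ctrl and 102.0, 140.0 and 136.0 CPM in TKO. In the pair on chromosome X, whose genes are 1281 bases apart, Col4a6 had a log2 fold change of -0.61 and Col4a5 of -0.30 (SE 0.135). Col4a5 was at 107.4, 88.0 and 103.6 CPM in Ctrl and 89.1, 74.9 and 78.1 CPM in TKO, and its groups overlapped. Between the F libraries Col4a6 went from 50.9 to 28.4 CPM and between the means of the M libraries from 45.8 to 32.6 CPM. Col4a3 and Col4a4, the chains known from the kidney glomerulus, were below 1 CPM in all libraries. Col18a1, which carries endostatin at its end, was at 342.2, 280.6 and 311.6 CPM in Ctrl and 310.4, 397.7 and 309.5 CPM in TKO. Col15a1, the other gene of that kind, had a log2 fold change of 0.93 (SE 0.380, adjusted p = 0.762 by edgeR) with overlapping groups.

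Col17a1 led the transmembrane class and had the highest mean per kilobase of the family. In Ctrl it did not differ from Col1a1 beyond their spread. It was at 1185, 1055 and 1289 CPM in Ctrl and 1001, 1071 and 1366 CPM in TKO, with overlapping groups and a log2 fold change of -0.04 (SE 0.168). Col13a1 was below 1 CPM in every library and Col23a1 was at 1.49 to 5.14 CPM in Ctrl and 2.37 to 5.49 CPM in TKO. The class had a median log2 fold change of -0.16, with 0 of the 4 higher and 1 lower (Col25a1) at an unadjusted p under 0.05.

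The main fibrillar collagens were abundant in both groups, with wide spread in Ctrl. Col1a1 was at 366.9, 1314 and 1261 CPM in Ctrl and 799.0, 1025 and 1181 CPM in TKO (log2 fold change 0.03, SE 0.398), so that the TKO libraries fell within the range of the Ctrl libraries. Col1a2 was at 229.2, 676.0 and 554.2 CPM in Ctrl and 441.0, 499.5 and 489.0 CPM in TKO (log2 fold change -0.03, SE 0.317). Col3a1, which forms thinner fibrils with type I collagen, was at 205.4, 637.1 and 617.5 CPM in Ctrl and 406.4, 492.0 and 499.4 CPM in TKO (log2 fold change -0.06, SE 0.350). In each of these genes Ctrl replicate 1 was the lowest of the 6 libraries. Across the class, 2 of the 11 genes were higher and 0 lower at an unadjusted p under 0.05 (Col27a1 and Col2a1), and the median log2 fold change was 0.03. Col2a1, the main cartilage collagen, and the FACIT gene Col22a1, known from the junction of muscle and tendon, are named after their values were seen. Col2a1 was at 0.0808, 0.0929 and 0.176 CPM in Ctrl and 0.544, 0.806 and 0.115 CPM in TKO (log2 fold change 2.05, SE 0.798, adjusted p = 0.736 by edgeR), and Col22a1 was at 0.182, 0.240 and 0.260 CPM in Ctrl and 0.892, 2.32 and 0.148 CPM in TKO (log2 fold change 2.29, SE 0.814, adjusted p = 0.661 by edgeR). In both genes TKO replicate 3 lay within or below the Ctrl range. With 1 library left out, log2 fold changes ranged from 1.49 to 2.52 for Col2a1 and from 1.19 to 2.81 for Col22a1. Col22a1 was called higher by edgeR without the filter on low counts.

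The remaining classes are the beaded filament, short-chain network and FACIT collagens. Among the 6 type VI genes, 0 were higher and 0 lower at an unadjusted p under 0.05, with a median log2 fold change of 0.03. Col6a1, which had the highest Ctrl level per kilobase of the class, was at 38.4, 121.2 and 119.8 CPM in Ctrl and 68.4, 70.0 and 113.8 CPM in TKO. Col8a1, a short-chain collagen of vessel walls and eye, was at 12.9, 20.2 and 15.4 CPM in Ctrl and 21.4, 33.2 and 18.2 CPM in TKO (log2 fold change 0.58, SE 0.249, adjusted p = 0.791 by edgeR), with overlapping groups. Among the 8 tested FACIT genes 3 were higher and 1 lower at an unadjusted p under 0.05, with a median log2 fold change of 0.27. Col12a1, the most abundant of them, was at 220.2, 314.9 and 289.3 CPM in Ctrl and 267.1, 332.8 and 261.6 CPM in TKO (log2 fold change 0.06, SE 0.172). Col16a1, the lower gene, had a log2 fold change of -0.58 (SE 0.220, adjusted p = 0.729 by edgeR). Col26a1, set with Col28a1 in the class other, was at 4.39, 10.1 and 9.54 CPM in Ctrl and 8.06, 5.35 and 8.91 CPM in TKO.

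The labelled cell type was read from its markers. Keratin genes Krt5 and Krt14 of basal keratinocytes had means of 4909 and 3065 CPM per kilobase in Ctrl and 3628 and 2495 in TKO, and the suprabasal keratins Krt10 and Krt1 were at 3983 and 2252 in Ctrl and 2985 and 1580 in TKO, so that suprabasal keratin transcripts were abundant too. Marker counts at an unadjusted p under 0.05 are read against 4.06% of all genes higher and 2.02% lower. Of the 9 basal markers 0 were higher and 1 lower, namely Krt15, which was at 2716, 2579 and 2089 CPM in Ctrl and 900.8, 792.0 and 1573 CPM in TKO (adjusted p = 0.185 by edgeR and 0.00066 by DESeq2). Of 6 suprabasal markers 0 were higher and 2 lower, and of 6 hair follicle markers 0 were either (Krt17 and Edar were the most abundant). All 6 tested Merkel cell markers were lower at that p, Atoh1 with a log2 fold change of -2.46 and Krt8 with -1.92. Of these 0 were called by edgeR, as were 0 (0%) of all genes in this direction. By DESeq2, 2 of the 6 were lower at an adjusted p under 0.05, Krt8 (4.94e-06) and Isl1 (0.0136), against 0.189% of all genes. Skeletal muscle markers were higher in 5 of 10 at the unadjusted p. By DESeq2 at an adjusted p under 0.05, 5 were higher, against 1.07% of all genes. Only Myh3 was called by edgeR, where 0.131% of all genes were called higher. It was at 0.656, 0.758 and 0.501 CPM in Ctrl and 3.87, 3.46 and 4.37 CPM in TKO (log2 fold change 2.61, adjusted p = 0.0211 by edgeR). The muscle markers summed to 4.37, 12 and 8.60 CPM in Ctrl and 36.4, 38.3 and 38.0 CPM in TKO, mostly Ttn. Cartilage markers summed to between 0.503 and 1.33 CPM. At the unadjusted p, 1 of 14 fibroblast, 1 of 10 endothelial and mural, 1 of 7 melanocyte and 0 of 6 tested immune cell markers were higher, and 0 in each were lower. The melanocyte gene was Mlana, at 0.141, 0.0155 and 0.167 CPM in Ctrl and 0.994, 1.53 and 0.304 CPM in TKO. Its log2 fold change was 3.13 (SE 0.856), with an adjusted p of 0.36 by edgeR and 0.0206 by DESeq2. Immune cell markers summed to 51.4 CPM in Ctrl replicate 2, 90.8 CPM in TKO replicate 2 and 9.98 to 27.0 CPM in the other 4 libraries. Which cells these marker transcripts came from, and whether other cell types add to any collagen value, was not tested.

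Genes whose products make, process or bind collagens were listed in 6 groups with 79 members, of which 74 were tested. Of these 0 were called by edgeR, against 0.131% of all genes called higher and 0% called lower. At an unadjusted p under 0.05, 8 were higher and 2 lower, where the background was 4.06% and 2.02% of all genes. By DESeq2 at an adjusted p under 0.05, 2 were higher and 2 lower, against 1.07% and 0.189% of all genes. Of the 21 biosynthesis genes 1 was higher and 1 lower. Plod2, the lysyl hydroxylase that acts on collagen telopeptides, was at 26.1, 22.4 and 20.7 CPM in Ctrl and 47.6, 99.7 and 34.1 CPM in TKO (log2 fold change 1.39, SE 0.336, adjusted p = 0.268 by edgeR and 0.00275 by DESeq2), and P3h4, part of a complex that modifies lysines in the endoplasmic reticulum, was at 19.8, 21.0 and 22.2 CPM in Ctrl and 11.8, 10.5 and 16 CPM in TKO (log2 fold change -0.72, SE 0.186, adjusted p = 0.320 by edgeR and 0.0455 by DESeq2). The chaperone Serpinh1 had a log2 fold change of 0.04 and the protein disulfide isomerase P4hb of -0.06. Of the 7 tested processing genes and the 5 cross-linking enzymes 0 passed that p, with log2 fold changes of -0.21 for Adamts14, -0.13 for Bmp1, -0.07 for Lox and -0.00 for Loxl2. With 1 library left out, Lox ranged from -0.52 to 0.38 and Loxl2 from -0.41 to 0.32. The median of the cross-linking enzymes was -0.00, and -0.41 without Ctrl replicate 1. Of the 9 tested receptors only Mrc2, an endocytic collagen receptor, was lower, at 53.3, 55.5 and 53.7 CPM in Ctrl and 35.6, 30.6 and 38.0 CPM in TKO (log2 fold change -0.64, SE 0.137, adjusted p = 0.185 by edgeR and 0.00658 by DESeq2). The collagen receptors Ddr1 and Itgb1 had log2 fold changes of 0.05 and 0.02. Of the 8 tested degradation genes 1 was higher, the proteinase inhibitor Timp3 (log2 fold change 0.68, SE 0.195, adjusted p = 0.413 by edgeR), and Mmp14 and Mmp2 were at -0.01 and -0.10.

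Basement membrane partners, the laminins, integrins and linkers that share the sheet with type IV collagen, had 6 of 24 tested genes higher (4.06% of all genes) and 0 lower at an unadjusted p under 0.05, with a median log2 fold change of 0.21 that was 0.07 without Ctrl replicate 1. TKO libraries lay entirely above Ctrl for 8 of the 24 (6.35% of all genes). Lama1, the laminin chain of early embryonic basement membranes, was at 20.1, 9.58 and 21.8 CPM in Ctrl and 39.1, 34.8 and 32.8 CPM in TKO (log2 fold change 1.05, SE 0.271, adjusted p = 0.316 by edgeR and 0.0150 by DESeq2). Tinagl1 was at 3.61, 3.40 and 2.46 CPM in Ctrl and 3.99, 8.95 and 4.14 CPM in TKO (log2 fold change 0.85, SE 0.362, adjusted p = 0.791 by edgeR). With 1 library left out, its log2 fold change ranged from 0.36 to 1.04. Agrn and Itgb4, the most abundant of the list per kilobase in Ctrl, had log2 fold changes of -0.15 and 0.24. Itgb4 (63.3 ± 3.67 CPM per kilobase) and Plec (63.2 ± 6.11) did not differ beyond their spread in Ctrl. Itgb4, a partner of the Col17a1 protein in the hemidesmosome, was at 463.9, 427.6 and 479.1 CPM in Ctrl and 479.5, 619.6 and 516.1 CPM in TKO, and the highest Ctrl library lay just under the lowest TKO library.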

How the data were processed

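Bulk RNA-seq of 3 Ctrl and 3 TKO libraries was compared. Per the labels and the study's methods, rRNA was depleted and the authors trimmed reads with fastp and aligned them with STAR. The methods name the GRCm39 genome and the submitters' processing notes GRCm38. The counting program, its annotation and its strand setting are not given in the sources used here. The deposited values are raw counts per gene, with 102159175 to 136515436 counts per library. Of 55536 genes, 51477 matched GENCODE vM39 (GRCm39), which gave symbols, positions and exon lengths. Promoter windows came from RefSeq (GRCm38.p6), and coordinates were not converted.

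Genes were kept with filterByExpr (minimum count 10, minimum total 15), which left 20622, scaled by TMM and tested with glmQLFit (robust) and glmQLFTest in edgeR 4.0.16 (R 4.3.3, limma 3.58.1), with Benjamini-Hochberg adjustment over all tested genes. A call required an adjusted p under 0.05 and a log2 fold change above 1 in size. The standard error (SE) of a log2 fold change was derived from the test. It is the size of the log2 fold change divided by the square root of the F statistic. The edgeR step was tested on simulated data. CPM used TMM-scaled library sizes, and summed or per-kilobase levels used the same scale. Alternatives were DESeq2 1.42.0, RLE scaling, other filters, a replicate block, a sex factor and leaving out each library. The smallest detectable level was set at 3 counts, which covers counting error only.

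The members, classes and the 6 partner and 11 marker lists were chosen with earlier results of these data known. Named collagen genes were Col28a1, those called, the most abundant of each class, up to 4 rises and 4 falls with groups that do not overlap, and skin collagens. In other lists they were the called, the 2 most abundant and the 2 largest changes of that kind. Other genes named, such as Col4a5, Col15a1, Pdgfra, Sox10 and the neighbours of Col28a1, were chosen after their values were seen. Ctrl embryos were Cre-negative littermates per the study, and the labels do not say which libraries share a litter. The values of 1 listed marker gene are not reported here.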

Additional observations from a re-analysis of the deposited data

How the results depend on the processing

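Over all alternatives, 235 values were recomputed for the 18 collagen genes named by rule, of which 195 kept their direction and their side of an adjusted p of 0.05, whatever the fold, 34 changed sign, 6 passed that p only under the alternative and 0 lost it. The 6 were Col14a1 in both DESeq2 fits, without the filter and without TKO replicate 3, and Col27a1 (0.00262) and Col4a6 (0.0266) in edgeR without the filter. Col28a1 kept its direction and its call in every fit that tested it. Genes called higher in TKO numbered 27 and were 193 by DESeq2 on the same genes, 198 in its default workflow, 213 without the filter, 9 with at least 10 counts in every library and 7 to 65 with 1 library left out, the highest without TKO replicate 3. Genes called lower were 0, and were 21, 29 and 22 in the first 3 of these and 0 to 16 with 1 library left out. Collagen genes called higher were 1, 2 without TKO replicate 3 (Col28a1 and Col14a1, range 1 to 2), 2 without the filter (Col28a1 and Col22a1), and 0 with at least 10 counts in every library, a filter that removes Col28a1. Collagen genes at an unadjusted p under 0.05 were 8 higher and 5 lower, 4 higher with a sex factor, 1 higher and 3 lower among the 17 members without exon overlap on the other strand, and 2 to 8 higher and 2 to 6 lower with 1 library left out.

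When replicate number entered as a replicate block, 44 genes were called higher and 1 lower. Same-numbered libraries correlated in their deviations from the group means by 0.168, 0.0873 and 0.127 and differently numbered ones by -0.161 to 0.0398. Each library thus correlated best with its own number, a hint from the data that numbers may pair libraries. Column names also run in sequence within each number, and 3 litters were used for bulk RNA-seq. However, 1 of the 3 values is under 0.1 and the labels state no pairing. Among collagen genes with overlapping groups, Col4a5 and Col16a1 were lower in TKO in each same-numbered pair. Col5a3, Col8a1, Col8a2 and Col15a1 were higher in each. The share of all tested genes with 1 direction in every pair was not computed. With the block the adjusted p by edgeR was 0.55 for Col4a5, 0.437 for Col16a1, 0.458 for Col5a3, 0.338 for Col8a1, 0.94 for Col8a2 and 0.319 for Col15a1. With the block, Col28a1 was still the only collagen gene called (adjusted p = 2.43e-06 by edgeR). Signs changed for genes near 0: Col1a2 to 0.10 with the block and 0.09 with the sex factor, Col3a1 to 0.09 with each, Col6a1 to 0.01 with the sex factor, Col1a1 to -0.005 without the filter, and Col4a2 to -0.01 with the block, -0.03 without the filter, -0.0016 by DESeq2 on the same genes and with RLE scaling, -0.00078 in the DESeq2 default and -0.0014 with the sex factor. With 1 library left out, log2 fold changes ranged from -0.36 to 0.30 for Col1a1, -0.37 to 0.28 for Col1a2, -0.43 to 0.18 for Col3a1, -0.08 to 0.13 for Col4a2, -0.01 to 0.19 for Col18a1, -0.52 to 0.09 for Col6a1, -0.07 to 0.17 for Col12a1, -0.18 to 0.05 for Col17a1 and -0.40 to 0.09 for Col26a1. The cause was not tested. Biological variation between replicates was 36.5% (coefficient of variation), which limits what 3 libraries a group can show.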
